A study of Mus musculus with 8 samples.

Results

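The 7 genes Gbp2, Gbp3, Gbp7, Igtp, Irgm1, Iigp1 and Ifi47 code for GTPases that interferons induce and that are typical of interferon-γ (IFN-γ). They were chosen by name. They are 7 of the 20354 genes in the deposited table of oligodendrocytes, and all 7 are also listed in the tables of all cell types, with 18242 genes for wild-type and 18886 for Rag1-/- mice. Their counts were followed in each oligodendrocyte cluster, in the microglia clusters of Rag1-/- libraries, and in T cells, which were taken as cells with at least 3 unique molecular identifiers (UMIs) of Cd3d, Cd3e and Cd3g together.

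The study compared gray and white matter of the aged brain in mice with and without mature lymphocytes. All mice were 24 months old, and the 8 libraries were 2 of gray matter (labelled prefrontal cortex) and 2 of white matter from C57BL/6 wild-type mice, and 1 of gray and 3 of white matter from mice without Rag1, a gene that T and B cells need to assemble their receptors. Natural killer and innate lymphoid cells do not need Rag1 and remain in such mice. The labels give the Rag1-/- strain as NOD.129S7(B6)-Rag-1tm1Mom/J, whereas the methods give an allele carried on C57BL/6J. Dissociated live cells were sorted and sequenced from the 3′ ends of their transcripts on the 10× platform, and each library holds several mice combined, except Rag1-/- white matter libraries 2 and 3, which per the study's list of mice came from 1 mouse each. By the same list, each wild-type gray matter library shares its mice with the white matter library of the same number, as does the Rag1-/- gray matter library with white matter library 1. The labels number 2 batches within each genotype; library 1 of each kind is batch 1, and Rag1-/- batch 2 holds only white matter. By the methods, genotype coincides with the experiment and the version of Cell Ranger, so these cannot be told apart. By the methods the version also differed between Rag1-/- batches 1 and 2. White matter libraries 2 and 3 therefore differ in it from the Rag1-/- gray matter library.

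The libraries held 584 to 7631 cells of all types. The oligodendrocyte table held 284 to 4106 cells and 2754274 to 44269555 UMIs per library, and wild-type gray and white matter library 1 were the shallowest. The oligodendrocyte markers Mbp, Mog, Mag, Cnp, Mobp and Mal were each found in oligodendrocytes of every library. Rag1 itself had 0 and 3 UMIs in wild-type gray matter, 0 and 24 in wild-type white matter, 37 in Rag1-/- gray matter and 108, 60 and 96 in Rag1-/- white matter. UMIs near a transcript's 3′ end need not lie in the deleted part, so these counts do not check the genotype. At most 15 cell barcodes were shared by any pair of libraries, and no doublet caller was run.

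IFN-γ is released mainly by activated T cells and natural killer cells. It binds the receptor made of IFNGR1 and IFNGR2, and signaling through the kinases JAK1 and JAK2 then acts on gamma-activated sites (GAS) and induces IRF1. Type I interferons signal through a complex that contains IRF9 and binds interferon-stimulated response elements (ISRE), and the gene sets of both interferons overlap. The induced GTPases form families. Among the immunity-related GTPases (IRGs), Irgm1 and Igtp (also Irgm3) are regulators that sit on the cell's own membranes and keep the effectors inactive there, while Iigp1 (Irga6) and Ifi47 (Irgd) are effectors that load onto the membranes around intracellular pathogens. The guanylate-binding proteins (GBPs), here Gbp2, Gbp3 and Gbp7, assemble on the same membranes, and loading of both families depends on the autophagy conjugation machinery.

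Gbp7, Gbp3 and Gbp2 lie near each other on the plus strand of chromosome 3 in the build of the files, GRCm38 (mm10), at chr3:142530342-142550149, chr3:142560026-142573209 and chr3:142620602-142638008 by GENCODE vM21. Irgm1 lies on chromosome 11 at chr11:48861968-48871683 on the minus strand, Ifi47 at chr11:49076587-49096974 and Igtp at chr11:58199556-58207591, both on the plus strand. All are protein coding. Igtp overlaps Irgm2 (chr11:58199618-58222782) on the same strand, Ifi47 overlaps Olfr56 and Gbp7 overlaps Gm43802, and the families consist of similar copies, so reads could have been split between them and these counts are uncertain to that degree.

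The sequences before the start sites show the elements that interferon-activated factors are known to bind. Of the 7 genes, 6 were in the RefSeq promoter table of GRCm38.p6 (all but Iigp1). The ISRE core, spelled GAAA NN GAAA with N for any base and searched on both strands of the 250 bases before the start, was in 5 of these 6 (Gbp2, Gbp3, Gbp7, Igtp and Irgm1) and in 2.98% of the 32851 promoters of the table. The 30 bases around each match are shown on the strand that carries the motif, with the motif letters in capitals. Gbp3 and Irgm1 each have 2 overlapping matches, and their capitals run through both. The table holds a second start site of Gbp3, whose window has no match of either motif, so per window the ISRE core was in 5 of 7.
Gbp2, chr3:142620594-142620623, minus strand: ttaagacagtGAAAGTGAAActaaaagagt
Gbp3, chr3:142559992-142560021, minus strand: gatctggGAAATAGAAACTGAAActgtgtc
Gbp7, chr3:142530273-142530302, minus strand: atggagaactGAAACTGAAActgcacacac
Igtp, chr11:58199512-58199541, plus strand: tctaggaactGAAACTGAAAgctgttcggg
Irgm1, chr11:48871428-48871457, minus strand: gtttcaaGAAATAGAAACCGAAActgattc

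In all 5 genes the matches lay close to the RefSeq start. Counted from that start site at 0 to the first base of the match, they began at -59 in Gbp2, -45 in Gbp3, -53 in Gbp7, -34 in Igtp and -30 in Irgm1. By the GENCODE positions above, Gbp2 and Irgm1 start further upstream, and their matches lie inside those genes. The GAS core TTCNNNGAA, whose letters read the same on both strands, was in 2 of the 7 windows, those of Gbp7 (2 matches) and Igtp (1 match), and in 7.02% of all promoters, and 0.332% of all promoters held both motifs. The 120 bases before the start of these genes, on the plus strand in which both are read, carry both motifs in capitals, and none of the matches overlap. In Gbp7 the GAS matches come first and the ISRE core follows as its reverse complement on this strand. In Igtp the GAS match ends 2 bases before the ISRE core. No match of either motif was found in the window of Ifi47, which says only that these letters are not there.
Gbp7, chr3:142530216-142530335, plus strand: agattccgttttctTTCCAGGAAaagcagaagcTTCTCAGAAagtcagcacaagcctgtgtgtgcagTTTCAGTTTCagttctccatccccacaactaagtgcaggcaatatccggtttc
Igtp, chr11:58199436-58199555, plus strand: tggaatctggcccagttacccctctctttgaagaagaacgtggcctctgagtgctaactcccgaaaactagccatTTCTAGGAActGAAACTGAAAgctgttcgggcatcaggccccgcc

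In oligodendrocytes, 4 of the 7 genes were measurable and 3 were close to absent. Irgm1, Igtp, Gbp7 and Gbp3 were found in all 8 libraries and were highest in wild-type white matter. The effectors Iigp1 and Ifi47 and the binding protein Gbp2 had at most 3, 2 and 6 UMIs in any library and did not pass the filter on low counts. With no filter, edgeR called none of them in any comparison of all oligodendrocytes. Levels are given as CPM, the UMIs of a gene per 1000000 UMIs of the summed cells. In such sums, more cells of a type and more RNA per cell cannot be told apart.

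Irgm1, a regulator, had 1.82 and 4.59 CPM in wild-type gray matter libraries 1 and 2 and 11.8 and 6.03 in white matter libraries 1 and 2. In Rag1-/- mice it had 3.93 CPM in gray and 4.19, 3.76 and 4.27 in white matter. Both wild-type white matter libraries were above all others, which lay close together except for the shallow gray matter library 1.

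Igtp, the other regulator, had 2.90 and 0.949 CPM in wild-type gray and 14.3 and 4.27 in wild-type white matter. It had 2.27 CPM in gray and 1.68, 1.10 and 1.53 in white matter of Rag1-/- mice. Again the wild-type white matter libraries did not overlap with any other, and library 1 was the higher of the pair.

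Gbp7 had 1.82 and 0.475 CPM in wild-type gray, 9.99 and 2.58 in wild-type white, 1.03 in Rag1-/- gray and 0.394, 0.505 and 0.946 in Rag1-/- white matter. Gbp3 had 0.726 and 0.237 CPM in wild-type gray, 4.00 and 1.20 in wild-type white, 0.310 in Rag1-/- gray and 0.286, 0.367 and 0.388 in Rag1-/- white matter. Both GBPs were therefore high in the same libraries as the regulators, from smaller counts (2 to 114 UMIs per library).

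**Figure D1:**
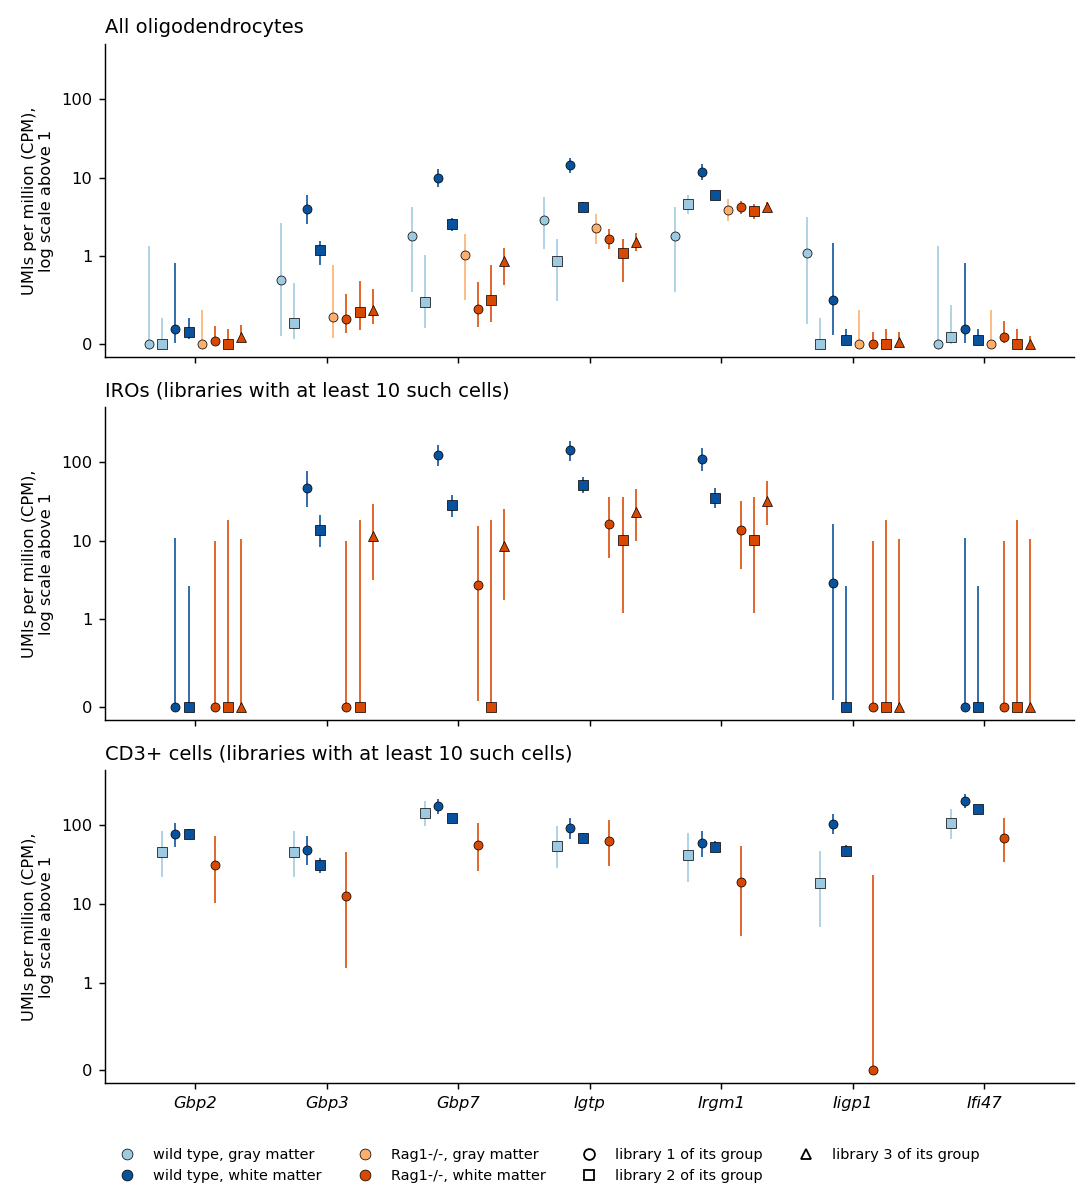
Level of each gene (CPM, linear up to 1 and logarithmic above) in all oligodendrocytes, in interferon-responsive oligodendrocytes (IROs) and in CD3+ cells (T cells in wild-type libraries), with 1 point per library and bars for the exact Poisson interval at 95%, which covers counting error only. Gbp3, Gbp7, Igtp and Irgm1 are highest in wild-type white matter in both oligodendrocyte panels, whereas Gbp2, Iigp1 and Ifi47 are near 0 in oligodendrocytes and clearly present in T cells.

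In the comparison of tissues, the question was whether these genes are higher in white than in gray matter oligodendrocytes of wild-type mice. On the log2 scale of edgeR, white exceeded gray matter by 2.72 (SE 0.921) for Gbp3, 2.79 (SE 0.908) for Gbp7, 2.54 (SE 0.702) for Igtp and 1.21 (SE 0.420) for Irgm1. None of these 4 tested genes passed the edgeR quasi-likelihood test, with adjusted p = 0.332, 0.300, 0.194 and 0.344 over 13067 genes, although the unadjusted p was below 0.05 for all 4, as it was for 9.58% of all genes. In that test 1.00% of all genes were called. For all 4, both white matter libraries lay above both gray ones, which held for 20.5% of the genes tested on CPM scaled by TMM, and for 19.1% on the unscaled CPM given here. This order implies that white was above gray matter for each gene within batch 1 and within batch 2, which is no further result. Their median log2 difference was 2.63, against -0.01 for all genes tested. In wild-type white matter library 1, 1 cell held 9 of 24 Gbp3, 25 of 60 Gbp7, 30 of 86 Igtp and 19 of 71 Irgm1 UMIs of oligodendrocytes. Without the cell with the most GTPase UMIs in each library, none of the 4 passed in edgeR (0.972% of all genes called). The size also rested on single libraries. Without wild-type white matter library 1 the differences were 1.74, 1.61, 1.497 and 0.71, and without gray matter library 2 they were 1.76, 1.75, 1.63 and 2.27. Without white matter library 2 they were 3.46, 3.56, 3.24 and 1.66, and without gray matter library 1 they were 3.29, 3.61, 3.18 and 0.87.

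Since a gray and a white matter library share their mice, the fit with the mouse pool as a block was also made. It called Gbp7 (log2 difference 2.45, adjusted p = 0.00015 in edgeR), Igtp (2.23, adjusted p = 2.79e-07) and Irgm1 (0.92, adjusted p = 0.0103), but not Gbp3 (2.38, adjusted p = 0.0535). That fit rests on 1 residual degree of freedom and called 10.0% of all genes. With the pool as a random block in limma voom, which called 3.07% of all genes, none of the 4 was called (adjusted p = 0.214 for Gbp3, 0.214 for Gbp7, 0.155 for Igtp and 0.444 for Irgm1). DESeq2 called Gbp7 and Igtp, with 2.16% of all genes called.

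The comparison of genotypes asked whether the levels in white matter oligodendrocytes differ without mature lymphocytes. The log2 fold change of Rag1-/- against wild-type white matter was -2.71 (SE 0.663) for Gbp3, -3.16 (SE 0.679) for Gbp7, -2.54 (SE 0.523) for Igtp and -0.997 (SE 0.338) for Irgm1. With adjusted p = 0.183, 0.108, 0.0859 and 0.447, none of the 4 passed in edgeR, where 0.911% of all genes were called, and all 4 had an unadjusted p below 0.05, as had 8.29% of all genes. All 4 were lower in each of the 3 Rag1-/- libraries than in both wild-type libraries, which held for 12.7% of all genes with TMM and 17.3% without. Their median change was -2.62, against 0.01 for all genes. Gbp7 and Igtp were called by DESeq2 (1.49% of all genes called), by edgeR with no filter on low counts (0.909% called) and by edgeR without wild-type white matter library 2 (log2 fold changes of -3.89 and -3.23, 0.743% called). Without wild-type white matter library 1 neither was called, with -1.96 for Gbp7 (adjusted p = 0.586 in edgeR) and -1.503 for Igtp (adjusted p = 0.507), and Gbp3 and Irgm1 had -1.71 and -0.51.

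Within Rag1-/- mice, white and gray matter oligodendrocytes were not shown to differ in any of the 4 genes. The gray side is 1 library, assumed to vary like the others. Gbp7 and Igtp were lower in all 3 white matter libraries than in it, as were 28.9% of all genes with TMM and 29.3% without. The log2 differences were 0.19 (SE 1.10) for Gbp3, -0.68 (SE 0.985) for Gbp7, -0.63 (SE 0.729) for Igtp and 0.08 (SE 0.470) for Irgm1, and none passed in edgeR (0.436% of all genes called), none had an unadjusted p below 0.05 (9.62% of all genes had) and DESeq2 called none. The test of the difference between the tissue effects of both genotypes gave 3.17 (SE 1.01, unadjusted p = 0.0119) for Igtp and 3.48 (SE 1.35, unadjusted p = 0.0296) for Gbp7, with an adjusted p near 1 in edgeR, where 0.00% of all genes were called and 236 (1.81%) had an unadjusted p below 0.05. DESeq2 called 3 genes, none of them among the 7, and the fit with the pool as a block called Igtp (2.68, adjusted p = 0.0227, with 0.276% of all genes called). With the pool as a random block in limma voom that call was lost (2.64, adjusted p near 1).

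**Figure D2:**
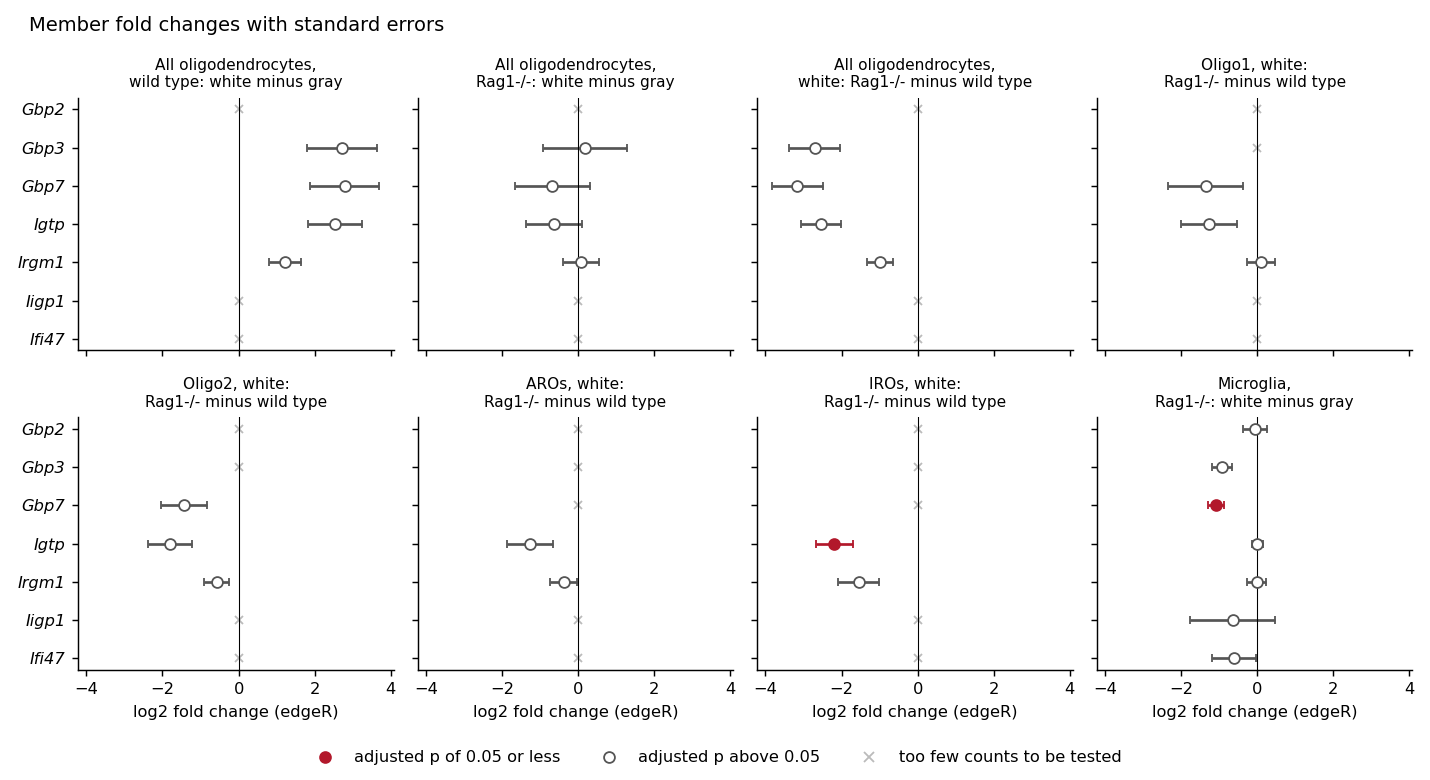
Log2 fold changes of the 7 genes with their standard errors in 8 edgeR comparisons of UMI counts summed per library, where filled red points have an adjusted p of 0.05 or less and crosses mark genes with too few counts. In oligodendrocytes the 4 measurable genes lie to the right in wild-type white against gray matter and to the left in Rag1-/- against wild-type white matter, and the called points are Igtp in IROs and Gbp7 in microglia.

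Markers of T cells and microglia were counted in the same sums. The 9 T cell markers together had 2.54 and 0.237 CPM in wild-type gray, 9.99 and 2.58 in wild-type white and at most 0.251 in Rag1-/- oligodendrocytes, with 8 of 9 found in each wild-type white matter library and Cd4 at 0 there. In T cells of these libraries Ifi47 had 96 and 432 UMIs beside 43 and 187 of Igtp. It had 1 and 2 UMIs in the oligodendrocytes beside 86 and 189 of Igtp. The 9 T cell markers had 2770 and 15324 UMIs in those T cells beside 82 and 334 of Gbp7, and 60 and 114 in the oligodendrocytes beside 60 and 114 of Gbp7. The part of T cell RNA in the differences was not tested. The 8 microglia markers were at 974.8 and 106 CPM in wild-type gray, 605 and 79.2 in wild-type white, 322 in Rag1-/- gray and 263, 106 and 183 in Rag1-/- white matter oligodendrocytes, so the highest microglia signal stood in a gray matter library, and its part was not tested.

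The authors divided the oligodendrocytes into the subclusters Oligo1a to c and Oligo2a to c, age-related oligodendrocytes (AROs) and IROs. These clusters were drawn from the expression of the same cells, so differences between them are given without a test. In wild-type white matter, IROs had the highest levels of all 4 measurable genes in both libraries. IROs numbered 29 and 123 in the libraries of wild-type and 39, 17 and 33 in Rag1-/- white matter. Gray matter held 1 and 5 in wild-type and 0 in Rag1-/- mice.

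In IROs of wild-type white matter libraries 1 and 2, Irgm1 had 109 and 35.4 CPM and Igtp had 142 and 51.3. Gbp7 had 124 and 28.2 CPM and Gbp3 had 47.2 and 13.7. In Rag1-/- libraries 1, 2 and 3, Irgm1 had 13.6, 10.1 and 31.8 CPM, Igtp 16.4, 10.1 and 23.2, Gbp7 2.73, 0 and 8.68, and Gbp3 0, 0 and 11.6. The groups did not overlap for any of the 4, and Rag1-/- library 3 came closest to wild type. Among the 5418 genes tested in IROs, which do not include Gbp3 and Gbp7, 9.62% were lower in this way with TMM and 12.9% without. Gbp2 and Ifi47 had 0 UMIs in IROs of every library that held any, and Iigp1 had 1 in all of them together. The T cell markers had 8.85 and 3.61 CPM in wild-type white matter IROs (3 and 5 UMIs, with Cd3d, Trac and Cd4 at 0 in both) and 0 in those of Rag1-/- mice, and the microglia markers had 566 and 76.6 CPM against 265, 95.9 and 177. Their part in the IRO levels was not tested.

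The other clusters lay far below IROs in wild-type white matter. AROs had 11.1 and 6.30 CPM of Irgm1 and 9.61 and 3.25 of Igtp, and Oligo2 had 7.07 and 5.37 of Irgm1 and 11.4 and 2.81 of Igtp. Oligo1 had 2.43 and 4.08 CPM of Irgm1, on either side of the 3.51 to 3.84 in Oligo1 of Rag1-/- white matter, and 1.62 and 2.40 of Igtp. Within Oligo2, the subcluster Oligo2c was the highest for Gbp7 in wild-type white matter library 2 (7.91 CPM against 1.09 in Oligo2a and 0 in Oligo2b) but not in library 1 (0 against 1.44 and 1.67, from at most 1 UMI each). For Igtp it was the highest in both, with 22.0 CPM against 12.96 and 0 in library 1 and 6.41 against 0.911 and 1.77 in library 2. These levels rest on few cells. In library 1, 1 of 36 Oligo2c cells held 7 of the 17 UMIs of the 7 genes. In library 2, 5 of 348 held 72 of 120. A single Oligo2a cell of library 1 held 7 Igtp UMIs.

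The test within IROs asked whether the level per IRO differs, apart from their number. Igtp was lower in Rag1-/- IROs (log2 fold change -2.19, SE 0.486, adjusted p = 0.0362 in edgeR), and Irgm1 had -1.55 (SE 0.534, adjusted p = 0.550). In that test 0.794% of all genes were called and 5.13% had an unadjusted p below 0.05, as both Igtp and Irgm1 had. The filter asks for enough counts in any 2 libraries. Igtp and Irgm1 passed it only with the wild-type libraries, where they are high, and Gbp3 and Gbp7 did not pass. The number of tested members that were called, or that had an unadjusted p below 0.05, is therefore no measure of the group. With no filter, Gbp7 (-3.72, adjusted p = 2.36e-08), Igtp (-2.22, adjusted p = 7.91e-06) and Irgm1 were called, as were 0.659% of all genes. Igtp was also called with DESeq2 (0.701% of all genes called) and without TMM (0.831%). It was called too without the cell with the most GTPase UMIs in each library (0.791%). The call of Igtp was lost without wild-type white matter library 1 (-1.48, adjusted p = 0.376) and without Rag1-/- white matter library 1, 2 or 3 (-2.09, -2.03 and -2.50, adjusted p = 0.144, 0.330 and 0.168). Without wild-type white matter library 2, which leaves 1 wild-type library, the log2 fold changes were -4.65 for Gbp7 and -2.94 for Igtp.

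In the other clusters no member passed in edgeR. For AROs, Igtp changed by -1.27 (SE 0.606, adjusted p = 0.870) between Rag1-/- and wild-type white matter, with 0.990% of all genes called. For Oligo2 the change of Igtp was -1.80 (SE 0.575, adjusted p = 0.433, 0.905% called) and for Oligo1 -1.27 (SE 0.728, adjusted p = 0.835, 0.734% called). White against gray matter in wild-type mice gave 2.14 (SE 0.844, adjusted p = 0.399) for Igtp and 2.49 (SE 1.08, adjusted p = 0.471) for Gbp7 in Oligo2, where 1.26% of genes were called, and 0.54 (SE 0.898) and -0.55 (SE 1.09) in Oligo1, where 0.139% were called. An unadjusted p below 0.05 was reached by 2 of 3 tested members in each Oligo2 comparison (9.71% of all genes between tissues and 6.15% between genotypes) and by none in Oligo1 (6.25% and 6.39%) or AROs (5.74%), and DESeq2 called none in any of these.

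IROs held a larger share of the GTPase UMIs than of the cells in each white matter library, which their clustering on the expression of the same cells favors. In wild-type white matter libraries 1 and 2 they held 58.5% (95% interval 52.1 to 64.8) of 246 UMIs of the 7 genes and 28.1% (24.6 to 31.8) of 633, while being 5.87% and 2.996% of the oligodendrocytes. In Rag1-/- white matter they held 6.45% (3.38 to 11) of 186, 3.2% (0.879 to 7.99) of 125 and 8.72% (5.78 to 12.5) of 298 UMIs, while being 1.28%, 1.04% and 0.855% of the cells. Intervals of shares are exact Clopper-Pearson intervals and cover counting error only. The interval of Rag1-/- white matter library 2 included its share of cells. Without IROs, the remaining oligodendrocytes of wild-type white matter still had 6.71 and 2.75 CPM of Igtp, against 1.02 to 1.49 in Rag1-/- white matter. Between these genotypes none of the 4 genes passed in edgeR, where 0.859% of all genes were called. None passed in wild-type white against gray matter either (0.943% called).

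Most IROs held no GTPase UMI. Of all 247 IROs, 178 had none, and 1 cell in wild-type white matter library 1 held 83 of its library's 144 IRO UMIs. In Rag1-/- white matter library 3, 1 cell held 20 of 26. When each cell was thinned to 3000 UMIs, 25% of 28 and 17.1% of 123 wild-type IROs had a UMI of any of the 7 genes, against 7.69% of 39, 5.88% of 17 and 9.09% of 33 Rag1-/- IROs, with exact intervals of 10.7 to 44.9 and 10.9 to 24.9 in wild-type and upper bounds of 20.9, 28.7 and 24.3 in Rag1-/- IROs. Before thinning the shares were 37.9% and 31.7% in wild-type and 20.5%, 23.5% and 18.2% in Rag1-/- IROs. Gray matter Oligo1 cells, which serve as the background, had 2.59%, 2.33% and 1.98% after thinning. Median depths were 8840 to 12271 UMIs in these IROs and 8402 to 10524.5 in these Oligo1 cells.

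The strong signal lay in few cells across clusters. Of 15604 oligodendrocytes, 14598 had no UMI of the 7 genes and 36 had 5 or more, a threshold chosen after the counts were seen. These 36 cells held 519 of all 1664 UMIs (31.2%). They were 18 IROs, 9 Oligo2c, 6 AROs, 2 Oligo2a and 1 Oligo1a cell. Just below the threshold 15 cells had 4 UMIs, and 6 cells had exactly 5.

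All 36 cells came from white matter. They were 8 of 494 oligodendrocytes (1.62%) and 23 of 4106 (0.560%) in wild-type white matter libraries 1 and 2. In Rag1-/- white matter they were 1 of 3055 (0.0327%), 0 of 1632, and 4 of 3859 (0.104%). Gray matter had 0 of 2458 cells. By the limit of 3 cells that a count of 0 allows, shares of up to 0.184% and 0.122% remain possible, and the exact upper bounds are 0.226% and 0.150%. Summed over libraries, they were 0.674% (0.458 to 0.955) of wild-type and 0.0585% (0.0190 to 0.136) of Rag1-/- white matter oligodendrocytes, a difference that was not tested over libraries. They held 51.8% and 10.5% of the GTPase UMIs there.

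Most of these cells held several of the genes. They were chosen by the sum of the same genes, which favors this, so it is no test of joint expression. Of the 36, 32 had Irgm1, 31 Gbp7, 29 Igtp and 22 Gbp3, and 27 had at least 3 of these 4. None had Gbp2 or Ifi47, and 2 had Iigp1. Ifit1 and Ifit3, genes typical of type I interferon, were uneven among them. In 13 cells these together had at least 10 UMIs, and 10 cells had neither. Of 14 type I interferon-stimulated genes together, all 36 cells had UMIs, with 3 to 44 in those 10 cells.

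Examples mark both ends for Ifit3. The IRO with 83 GTPase UMIs (9 Gbp3, 25 Gbp7, 30 Igtp and 19 Irgm1) had 1 UMI of Ifit3 and 25 of the 14 type I interferon-stimulated genes together. An Oligo2c cell of wild-type white matter library 2 had 31 GTPase UMIs beside 125 of Ifit3 and 512 of the 14. An Oligo1a cell of the same library had 25, of which 19 were Igtp, with 7 of Irf1, 0 of Ifit3 and 10 of the 14. All 36 cells had at most 17 UMIs of the microglia markers and at most 1 of the T cell markers, which 3 of them had. Their median total was 14421.5 UMIs, against 10101.5 over all oligodendrocytes, and the part of depth and of doublets was not tested.

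**Figure D3:**
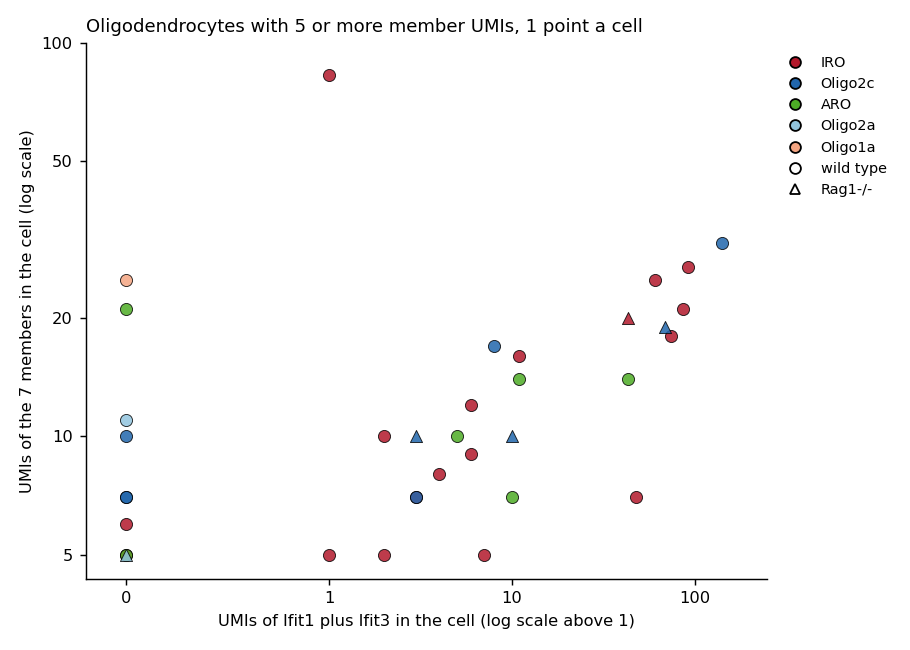
Each of the 36 oligodendrocytes with 5 or more UMIs of the 7 GTPase genes, placed by its UMIs of Ifit1 plus Ifit3 (linear up to 1, logarithmic above) and of the 7 genes (logarithmic), with color for the cluster and triangles for Rag1-/- cells. The cell with 83 GTPase UMIs has 1 UMI of Ifit3, 10 cells stand at 0 on the horizontal axis, and 5 of the 36 cells are from Rag1-/- mice.

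All 7 genes were found in T cells. There were 3 and 23 T cells in wild-type gray and 52 and 328 in wild-type white matter libraries, and none of them was in the oligodendrocyte table. Rag1-/- libraries held 2 such cells in gray and 24, 3 and 2 in white matter. These had 0 UMIs of Cd8b1 and at most 2 of Trac per library, and all 6 markers of natural killer and innate lymphoid cells were found in those of each white matter library, so their markers go against the name T cell and they are called CD3+ cells here. At the threshold, 7 cells of wild-type white matter library 2 had exactly 3 Cd3 UMIs and 4 had exactly 2.

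Among the effectors, Ifi47 had 204 and 159 CPM in T cells of libraries 1 and 2 of wild-type white matter, and 106 in those of gray matter library 2. Iigp1 had 104 and 47.2 CPM in white and 18.4 in gray matter. Both were absent or nearly so in the IROs of the same libraries. Summed over both white matter libraries, Ifi47 had 528 UMIs in 380 T cells and 0 in 152 IROs, which makes it at least 95.2-fold higher per UMI in T cells, counted against a floor of 3 UMIs over both libraries. Against the same floor in each library alone, the bounds were 23.0 and 73.5. Iigp1 had 177 and 1 UMIs, a ratio of 95.8 with an exact counting interval of 17.0 to 3804. In library 1 alone the ratio was 35.2 (6.03 to 1420), and in library 2 the bound was 21.8.

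The GBPs and the regulators ranged from 0 UMIs in IROs to ratios whose counting interval included 1. Gbp2 had 76.3 and 78.6 CPM in T cells of white matter libraries 1 and 2, with 249 UMIs in all and 0 in IROs, at least 44.9-fold higher over both and 8.63-fold and 36.2-fold in each alone. Gbp7 had 174 and 123 CPM and Gbp3 48.8 and 31.0, which in the sums is 2.78-fold (2.19 to 3.57) and 1.65-fold (1.12 to 2.50) the level in IROs. Igtp had 91.2 and 69.0 CPM and Irgm1 59.4 and 53.5, which is 1.05-fold (0.835 to 1.32) and 1.09-fold (0.836 to 1.43). The intervals cover counting error only. For Gbp7 the ratio was 1.40 (0.957 to 2.09) in library 1 and 4.37 (3.13 to 6.25) in library 2, and for Gbp3 1.03 (0.523 to 2.09) and 2.26 (1.36 to 3.93), so in library 1 both intervals included 1. For Igtp and Irgm1 the ratio was 0.644 and 0.544 in library 1 and 1.34 and 1.51 in library 2. The direction in library 1 rests on 1 IRO, which held 30 of the 48 Igtp and 19 of the 37 Irgm1 UMIs. Without that cell the ratios in library 1 were 1.64 (0.924 to 3.01) and 1.07 (0.569 to 2.05), and those of Gbp7 and Gbp3 were 3.30 (1.94 to 5.94) and 2.25 (0.935 to 6.21). Over both libraries without it, Igtp had 1.39 (1.08 to 1.79) and Irgm1 1.38 (1.04 to 1.86).

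Most T cells held GTPase signal, with a UMI of any of the 7 genes in 94.2% and 91.5% of those in the wild-type white matter libraries. In these libraries 7 of 52 and 58 of 328 T cells held 50% of the counts. Ifng itself, the gene of IFN-γ, had 11 UMIs in T cells of gray matter library 2 and 18 and 101 in white matter libraries 1 and 2 (50.7, 38.2 and 37.2 CPM). It had 0 in all Rag1-/- CD3+ cells and 0 in IROs. In the 24 CD3+ cells of Rag1-/- white matter library 1, Ifi47 had 69.1 CPM, Igtp 62.8 and Gbp7 56.6, from 9 to 11 UMIs each, and Iigp1 had 0. RNA of other cell types was also counted in the T cells of wild-type white matter libraries 1 and 2. The oligodendrocyte markers Mbp, Mog, Mag, Cnp, Mobp and Mal together had 1442 and 3760 CPM there, against 23102 and 19998 in oligodendrocytes of the same libraries. The 8 microglia markers, all found, had 4406 and 1445 CPM, against the 41624 to 43714 of Rag1-/- microglia, which express these GTPases too. Their part in the T cell levels was not tested.

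Each gene's UMIs were divided among the cells of a library. In wild-type white matter libraries 1 and 2, T cells held 80.0% and 90.2% of all Ifi47 UMIs, 57.6% and 59.0% of Iigp1 and 56.2% and 63.8% of Gbp2, with 5.3% and 4.7% of all UMIs. Oligodendrocytes held 40.8% and 38.6% of Irgm1 and 41.1% and 31.0% of Igtp, but 0.8% and 0.4% of Ifi47, with 68.0% and 77.3% of all UMIs. So the regulators had a sizeable share in oligodendrocytes and the effectors had almost none. In Rag1-/- white matter, the cells named as microglia held 83.4%, 79.7% and 68.2% of Igtp and 80.6%, 77.2% and 61.3% of Gbp7.

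**Figure D4:**
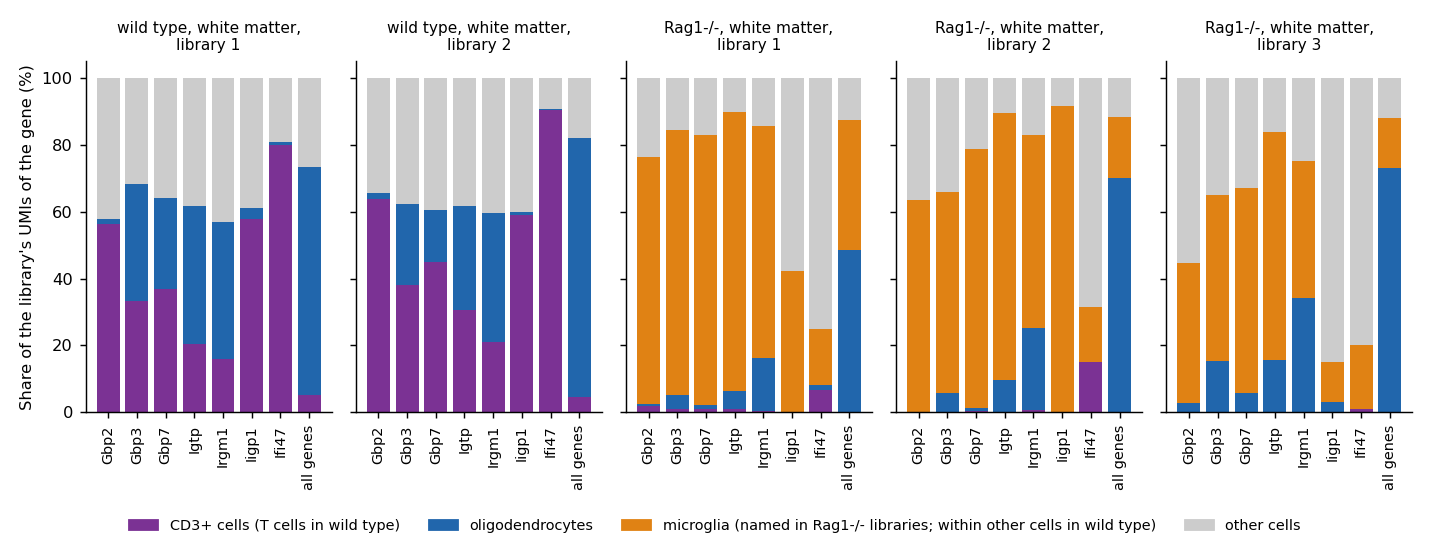
Share of each gene's UMIs (percent) held by CD3+ cells (T cells in wild-type libraries), oligodendrocytes, named microglia and all other cells in the 5 white matter libraries, beside the share of all genes, where microglia are named in Rag1-/- libraries and are part of the other cells in wild-type libraries. T cells hold most of Ifi47, Iigp1 and Gbp2 in wild-type white matter, and named microglia hold most of Gbp7, Igtp and Irgm1 in Rag1-/- white matter libraries 1 and 2.

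In microglia of Rag1-/- mice, all 7 genes were measurable, and Gbp7 was lower in the 3 white matter libraries than in the single gray one, a call that rests on that 1 library. The libraries held 1732 microglia in gray and 3617, 707 and 1365 in white matter. The study named their clusters Homeostatic1, Homeostatic2, activated microglia, white matter-associated microglia (WAM) and interferon-responsive microglia (IRM). All 8 microglia markers were found in each library, at 41624 to 43714 CPM together. Wild-type microglia have no cluster names in the tables used here and were not divided.

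Gbp7 had 96.8 CPM in gray and 30.9, 45.3 and 41.5 in white matter microglia, and Gbp3 had 15.6 in gray and 6.68, 8.54 and 6.02 in white matter. On these CPM the gray matter library was the highest for both, and for Ifi47 (3.23 against 1.2, 2.24 and 2.13), Igtp and Gbp2, as it was for 55.5% of the genes tested. Scaled by TMM it was so for Gbp3, Gbp7 and Ifi47 and for 29.6% of genes. The log2 fold change of white against gray matter was -1.08 for Gbp7 (SE 0.203, adjusted p = 0.0363 in edgeR) and -0.92 for Gbp3 (SE 0.260, adjusted p = 0.130). Of the 7 genes 1 was called, against 3.13% of 12660 genes, and 2 had an unadjusted p below 0.05, against 15.5%. The gray side is 1 library, which is assumed to vary like the white ones. Without white matter library 2 the call of Gbp7 was lost (-1.18, adjusted p = 0.0552), and without white matter library 1 Gbp3 was called too, in a fit that called 23.1% of all genes. With the labelled batch as a term, added after seeing the data and leaving 1 residual degree of freedom, Gbp7 was called (-1.41, adjusted p = 6.3e-05) and Gbp3 was not (-0.98, adjusted p = 0.0548), with 9.57% of all genes called. Blood genes (3 hemoglobin genes together) had 656.9 CPM in gray and 71.7, 68.3 and 22.8 in white matter microglia, and 5 macrophage markers 14.7 in gray and 3.26 to 5.49 in white matter; their part was not tested.

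Neither regulator passed the test. Igtp had 39.8 CPM in gray and 33.0, 33.5 and 34.1 in white matter microglia, with a log2 difference of -0.0033 (SE 0.145), and Irgm1 had 32.5 in gray and 22.8, 35.2 and 24.96 in white matter, with -0.02 (SE 0.247). Gbp2 ranged from 5.39 to 8.74 CPM, Ifi47 from 1.2 to 3.23 and Iigp1 from 0.502 to 8.95. None of these 5 passed the test.

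Among the clusters other than IRM, Gbp7 was highest in Homeostatic1 microglia and lowest in WAM in all 4 libraries. Homeostatic1 microglia had 96.9 CPM of Gbp7 in gray and 72.0, 73.3 and 75.9 in white matter, Homeostatic2 64.7 in gray (29 cells) and 26.8, 34.7 and 22.7 in white, and WAM 34.3 in gray (27 cells) and 8.21, 6.55 and 11.1 in white matter. Homeostatic1 was 1634 of the 1732 gray matter microglia but 785 of 3617, 248 of 707 and 577 of 1365 of the white matter ones, so the difference over all microglia goes with different cluster shares, whose part in it was not tested. Igtp varied less, with 38.7 to 43.8 CPM in Homeostatic1 and 20.5 to 22.1 in white matter WAM.

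IRM, of which there were 15 in gray and 37, 13 and 9 in white matter, expressed all 7 genes. Iigp1 had 605 CPM in gray and 76.4, 353 and 38.8 in white matter IRM, Ifi47 216, 32.7, 83.5 and 129, and Gbp2 237, 124, 65.0 and 155. Irgm1 had 291, 164, 260 and 220 CPM and Igtp 151, 167, 186 and 207. In these gray matter IRM the 5 macrophage markers had 281 CPM (3 of 5 found, with Cd163 and Lyve1 at 0), against 3.64, 9.28 and 0 in white matter IRM. The natural killer and innate lymphoid markers had 54.0 CPM (Klrk1 alone) against 0 in each, and the hemoglobin genes 604.5 against 65.4, 27.8 and 25.9. T cell markers were at 0 in IRM of every library, and the part of the others was not tested. The effectors varied more between libraries than the regulators. A UMI of any of the 7 genes was in 100% of gray and in 94.6%, 92.3% and 88.9% of white matter IRM. Of these 15, 37, 13 and 9 cells, 3, 8, 3 and 2 held 50% of the IRM counts of their library. The effectors were thus measured in Rag1-/- IRM, while IROs of the same libraries had 0 UMIs of both.

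**Figure D5:**
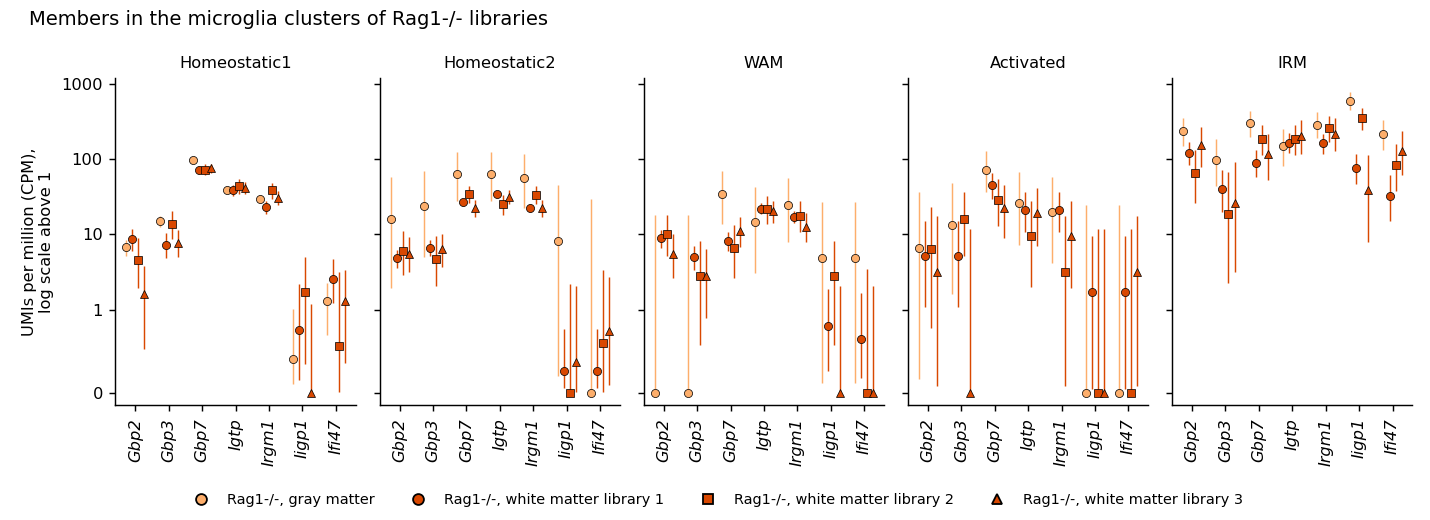
Level of each gene (CPM, linear up to 1 and logarithmic above) in the microglia clusters of the 4 Rag1-/- libraries, with exact Poisson intervals at 95% that cover counting error only. Gbp7 falls from Homeostatic1 (72.0 to 96.9 CPM) to WAM (6.55 to 34.3 CPM), and Iigp1, Ifi47 and Gbp2 stand out in IRM.

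Of 21 other interferon-induced GTPases, 18 were listed in both tables used for oligodendrocytes and T cells. In IROs of wild-type white matter 7 of them had a UMI but only Irgm2, a further regulator, had 10 or more (18 and 27 UMIs, 53.1 and 19.5 CPM). In Rag1-/- IROs Irgm2 had 6, 0 and 1 UMIs. In T cells of the same wild-type libraries all 18 had a UMI and 17 had at least 10, among them Gbp4 (76.3 and 103 CPM) and the effector Tgtp2 (19.1 and 24.7 CPM), of which IROs had 0 and 1 UMIs in all. In IRM 13 of the 16 listed had 10 or more UMIs. None of the list's 5 tested genes passed in edgeR in any comparison of all oligodendrocytes, nor did any of its 14 tested genes in microglia. In wild-type white against gray matter 1 of these 5, Irgm2, had a positive log2 difference (3.25, adjusted p = 0.194) and the median was -1.502. Between Rag1-/- and wild-type white matter 1 of the 5 had a positive difference and the median was -0.78.

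Of the genes through which IFN-γ acts, neither Ifngr1 nor Irf1 was called in all oligodendrocytes. Ifngr1, a receptor chain, had 27.1 to 40.3 CPM in wild-type and 21.6 to 34.5 in Rag1-/- oligodendrocytes, and so was present in every library. Irf1, the factor that IFN-γ induces, had 1.82 and 1.503 CPM in wild-type gray and 6.996 and 4.54 in wild-type white matter (log2 difference 1.81, SE 0.360, adjusted p = 0.0641 in edgeR) and 2.96 to 3.72 in Rag1-/- white matter.

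Some genes of the type I interferon response were called in all oligodendrocytes, where no GTPase was, but most of the 14 stimulated genes were not. The GTPases and these genes were not tested against each other. Of 14 stimulated genes, all tested in all oligodendrocytes, 4 were higher in wild-type white than gray matter (Ifit3 4.19, Rtp4 4.12, Ifi27l2a 4.12 and Oasl2 3.86 on the log2 scale, adjusted p = 0.0305, 0.0457, 0.00755 and 0.0478 in edgeR). In Rag1-/- against wild-type white matter 3 were lower, Oasl2 (-4.56, adjusted p = 0.00257), Ifit3 (-3.39, adjusted p = 0.0087) and Ifi27l2a (-1.80, adjusted p = 0.0325). The median log2 differences of the 14 were 3.64 and -2.42, against 2.63 and -2.62 for the 4 tested GTPases. An unadjusted p below 0.05 in edgeR was reached by 8 and 12 of the 14 and by all 4 GTPases in both comparisons. Over all genes, 1.00% and 0.911% were called and 9.58% and 8.29% had an unadjusted p below 0.05. Of the 7 receptor and signaling genes of type I interferon, Irf9 was higher in wild-type white matter (1.76, adjusted p = 0.0120) and Irf7 lower in Rag1-/- white matter (-2.50, adjusted p = 0.0489). Within Oligo2, Irf9 (1.61) and Ifi27l2a (6.63) were called in wild-type white against gray matter and Ifi27l2a (-1.69) between genotypes, and within AROs Ifit3 (-4.39) was called.

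Within IROs, 4 type I interferon-stimulated genes were called lower in Rag1-/- mice, beside Igtp. Since a gene can pass the filter through the group where it is high, the number tested (11) gives no share. They were Ifit3b (log2 fold change -5.31, adjusted p = 0.000564 in edgeR), Oasl2 (-3.34, adjusted p = 0.00763), Ifit3 (-3.27, adjusted p = 9.04e-05) and Ifit2 (-1.96, adjusted p = 0.00548). Autophagy conjugation genes, on which GTPase loading depends, were present throughout, with Gabarap at 491 to 579 CPM and Atg5 at 23.8 to 28.7 CPM in all oligodendrocytes. None of the 10 was called in any comparison, and their median log2 differences were 0.08 and 0.07, near those of all genes.

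The genes whose levels ran most closely with the sum of the 7 members were immune genes. Over 53 sums of a cluster in a library, the Pearson correlation of log2(CPM + 1) was highest among 12369 genes for H2-K1 (0.867), H2-D1 (0.863), Ifit3 (0.863), Usp18 (0.854) and B2m (0.848), followed by H2-T22, Irgm2, Tap1, Psmb8 and Bst2 (0.844 to 0.833). The 4 measurable members correlated with each other at 0.719 (Gbp7 and Irgm1) to 0.790 (Gbp3 and Gbp7). The sums share libraries, depth and the clustering, so these values are descriptions.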

How the data were processed

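Cells were sequenced by the authors on the 10× 3′ platform in 8 libraries. The authors aligned reads to mm10 with Cell Ranger, in version 4 per the labels and in versions that differed between experiments per the methods, and deposited raw, whole UMI counts for each cell and gene, after filters on UMIs, genes and mitochondrial share that differed between experiments. The gene annotation is not given in the sources used here. Cluster names are the authors'; 9 named Rag1-/- microglia had no match in the count table.

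Counts were summed per library and class. Genes present in the tables of both genotypes (16999, or for microglia the 18884 matched in the Rag1-/- table) were filtered by filterByExpr, scaled by TMM and tested with edgeR 4.0.16 in R 4.3.3 (quasi-likelihood, two-sided). Each combination of tissue and genotype was a group, p-values were adjusted by Benjamini-Hochberg over all genes tested, and an adjusted p of 0.05 or less was called. A sum entered with at least 20 cells (10 for IROs). The SE given with an edgeR log2 fold change is its absolute value divided by the square root of the quasi-likelihood F statistic. It approximates a standard error and was not estimated by the model. DESeq2 1.42.0, limma 3.58.1 voom, edgeR without TMM or filter, the mouse pool or batch as a block, leaving out each library and leaving out IROs were alternatives. Another, added after the data were seen, left out the cell with the most GTPase UMIs in each library. Per the study's list of mice, each gray matter library shares its mice with the white matter library of the same genotype and number. In wild-type oligodendrocyte sums, the deviations of such libraries from their group means correlated at r = 0.370 across genes. With 2 libraries per group this is 1 value, and these libraries also share the labelled batch, so it cannot show an effect of shared mice. The scripts were tested on simulated data. Python 3.11.15, numpy 2.4.6, scipy 1.17.1 and pandas 2.3.3 were used for the rest.

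Libraries are the replicates, so p-values measure the spread between these pools. The genes, lists and markers were chosen with earlier results of these data known. Named were all 7 genes and, of the lists, called genes and those with a role described. UMIs come from 3′ ends and were not divided by gene length. Values of some genes on these lists are not reported here.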

Additional observations from a re-analysis of the deposited data

How the results depend on the processing

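Of the values the design fixed, 200 stayed under an alternative and 23 moved. For a count of called members, staying meant a value within 1.5 times the reported count. For a share or a level it meant a value within the exact 95% interval of the reported one. Among single genes and values chosen after seeing the data, 417 stayed, 15 became significant, 5 lost significance, 16 changed direction and 7 moved. Where no value shows a cause, the cause was not tested.

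Counts of called members moved as follows. In all oligodendrocytes, wild-type white against gray matter gave 2 with DESeq2 (2.16% of all genes called) and 3 with the replicate block (10.0%). Rag1-/- against wild-type white matter gave 2 with DESeq2 (1.49%) and 2 with no filter (0.909%). The count between genotypes also depended on which library was left out. The difference between tissue effects gave 1 with the replicate block, which changed no other call, and the pool as a random block in voom called no member in any of the 4 comparisons of all oligodendrocytes. Without single libraries that difference ranged from 2.13 to 3.87 for Igtp and from 2.29 to 4.29 for Gbp7. In IROs the count was 3 with no filter (0.659% of all genes called). It was 0 without any 1 of the Rag1-/- white matter libraries (0.513% to 0.92% called). Since members passed the filter only with the wild-type libraries, counts in IROs are no measure of the group. Without single libraries, Igtp in IROs ranged from -2.94 to -1.48. In microglia Gbp7 ranged from -1.18 to -0.94, and which members were called depended on the library left out. For microglia the mouse pool as a fixed block left no residual degree of freedom, and as a random block its correlation could be estimated for 0 genes. The batch as a term changed no call there.

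Directions changed for differences far from significance and for the ratios of T cells to IROs in wild-type white matter library 1, which without the IRO with the most GTPase UMIs were 1.64 for Igtp and 1.07 for Irgm1. In Rag1-/- white against gray matter oligodendrocytes, Gbp3 had -0.12 with the replicate block and -0.18 with voom and the pool as a random block, and Irgm1 ranged from -0.00048 to 0.10 without single libraries. In Oligo1 of wild-type mice, Gbp7 ranged from -1.53 to 0.59, Igtp from -0.31 to 1.25 and Irgm1 from -0.71 to 0.74, and Irgm1 between genotypes from -0.11 to 0.64. In microglia Gbp2 ranged from -0.23 to 0.10, Igtp from -0.020 to 0.00064 and Irgm1 from -0.20 to 0.082 without single libraries. With the batch as a replicate block Gbp2 had 0.12, and without TMM the 3 had -0.29, -0.24 and -0.25, where the median of all genes was -0.22 against 0.016 with TMM.

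The share of GTPase UMIs in IROs was 24.1% with Igtp left out and 35.2% with Irgm1 left out in wild-type white matter library 2, and 0% with Irgm1 left out in gray matter library 2. Without thinning, 31.7% of IROs of wild-type white matter library 2 and 7.5%, 5.68% and 6.69% of Oligo1 cells of the gray matter libraries had a GTPase UMI. At 2000 UMIs per cell it was 17.2% and 13.01% of IROs in wild-type white matter libraries 1 and 2 and 2.56%, 0% and 12.1% in Rag1-/- libraries 1, 2 and 3, so library 3 lay close to wild type. It was 2.05% and 1.23% of Oligo1 cells in wild-type gray matter libraries 1 and 2 and 2.5% in the Rag1-/- gray matter library, about the 2.56% and above the 0% of Rag1-/- IROs of libraries 1 and 2. Cells with at least 3 GTPase UMIs were 1.11% of wild-type and 0.246% of Rag1-/- white matter oligodendrocytes. In gray matter they were 3 of 2458 cells (0.122%), all Oligo1 cells of wild-type library 2. Cells with at least 10 were 0.370% of wild-type and 0.0468% of Rag1-/- white matter oligodendrocytes.

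Depth limits the rest. Wild-type gray matter library 1 had 2 to 8 UMIs of each of the 4 measurable genes, and Rag1-/- IROs had 0 to 11. Gbp2, Iigp1 and Ifi47 did not pass the filter in all oligodendrocytes and were not called there without it.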
